A study of Schizosaccharomyces pombe with 36 samples.

Results

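Of the 7039 annotated features of fission yeast (*Schizosaccharomyces pombe*) in the deposited table, 1568 were ncRNAs, and 784 of these formed the class described here. A member was an ncRNA with under 50% of its span, from start to end, covered by protein-coding features on the opposite strand of its chromosome. Of 787 ncRNAs that met this limit, 3 named ncRNAs were left out. The class is referred to below as low-overlap ncRNAs, and the 778 ncRNAs with 50% or more as antisense ncRNAs. Total RNA was depleted of ribosomal RNA and sequenced by strand from cells grown in YE medium, taken just before 1 M sorbitol was added (0 min) and then after 15, 30 and 60 min and after 120 and 180 min. One set of libraries came from a WT strain and the other from a strain labelled *atf21Δ*, which stands for deletion of *atf21*, a gene for a transcription factor of the ATF family. Each strain and time had 3 biological replicates, which gave 36 libraries.

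Long ncRNAs of yeast are mostly made by RNA polymerase II, often from the nucleosome-depleted region of a coding gene's promoter, and many are removed in the nucleus by the exosome. A smaller group of stable ncRNAs carries out housekeeping work, such as protein targeting to the endoplasmic reticulum, tRNA and rRNA maturation and the modification of rRNA. Sorbitol raises the osmolarity of the medium and activates the Sty1 kinase, which acts through Atf1-Pcr1, a factor that binds the CRE core TGACGT.

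The stretches below show the start regions of some members named in the results, and the part of *sme2* that holds a short motif. They were read from the RefSeq assembly ASM294v3, in which 664 members have the same start and end as in the deposited table, and run 5′ to 3′ on the strand of the ncRNA, up to 250 bases before and 50 after its start, without bases of a coding gene. Capitals mark TGACGT or its complement ACGTCA in SPNCRNA.935 (I:3745528-3745827), SPNCRNA.968 (I:4179483-4179782) and SPNCRNA.1058 (I:5201806-5202105), 3 members that rose. These were chosen after their values were seen. They are the only 3 of 23 rising members searched with a match outside coding bases, so they are not typical of the rises. In SPNCRNA.935 capitals also mark the complement of the forkhead motif GTAAACA.
SPNCRNA.935: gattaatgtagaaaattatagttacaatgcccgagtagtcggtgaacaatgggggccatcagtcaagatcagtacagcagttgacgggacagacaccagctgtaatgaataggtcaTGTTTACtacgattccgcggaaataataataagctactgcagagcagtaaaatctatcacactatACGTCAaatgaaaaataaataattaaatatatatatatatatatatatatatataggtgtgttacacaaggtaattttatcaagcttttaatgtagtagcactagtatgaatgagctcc
SPNCRNA.968: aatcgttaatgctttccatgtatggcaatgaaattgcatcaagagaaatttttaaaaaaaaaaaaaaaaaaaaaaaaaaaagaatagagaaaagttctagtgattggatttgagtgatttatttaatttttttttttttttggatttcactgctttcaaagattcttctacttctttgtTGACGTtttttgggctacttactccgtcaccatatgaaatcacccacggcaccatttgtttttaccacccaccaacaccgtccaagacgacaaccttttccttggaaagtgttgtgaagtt
SPNCRNA.1058: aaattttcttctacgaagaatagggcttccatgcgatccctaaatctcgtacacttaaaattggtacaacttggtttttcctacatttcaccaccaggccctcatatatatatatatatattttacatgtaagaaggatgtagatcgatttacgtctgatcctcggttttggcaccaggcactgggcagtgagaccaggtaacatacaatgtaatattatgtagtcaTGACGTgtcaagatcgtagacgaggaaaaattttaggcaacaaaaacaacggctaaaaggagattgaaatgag
SPNCRNA.974 (I:4291777-4292048) was among the largest rises and held none of the motifs searched.
SPNCRNA.974: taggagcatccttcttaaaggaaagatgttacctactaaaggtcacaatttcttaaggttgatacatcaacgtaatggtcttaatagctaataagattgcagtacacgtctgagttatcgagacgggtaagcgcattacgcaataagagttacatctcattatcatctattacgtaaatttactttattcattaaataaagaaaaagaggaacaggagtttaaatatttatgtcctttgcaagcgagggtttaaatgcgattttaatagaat
SPNCRNA.756 (I:1712656-1712783) fell, and its stretch runs from the divergent gene *rlp7* to 50 bases into the ncRNA. Capitals mark the complement of the HomolD box CAGTCACA, a motif of ribosomal protein promoters.
SPNCRNA.756: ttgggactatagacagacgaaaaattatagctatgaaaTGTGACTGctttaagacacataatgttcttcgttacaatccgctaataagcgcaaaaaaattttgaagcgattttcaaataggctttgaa
In the stretch of *sme2* (II:339347-339646) capitals mark TTAAAC, a motif to which the meiotic mRNA elimination factor Mmi1 binds. Variants of this motif were not searched and are not marked.
sme2: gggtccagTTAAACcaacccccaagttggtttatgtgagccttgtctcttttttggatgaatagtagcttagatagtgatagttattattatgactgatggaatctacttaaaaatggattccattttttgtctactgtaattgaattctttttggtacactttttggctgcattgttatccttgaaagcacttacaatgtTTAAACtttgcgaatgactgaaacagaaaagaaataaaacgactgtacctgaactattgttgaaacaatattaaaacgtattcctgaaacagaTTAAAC

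Reads of *atf21* (SPBC2F12.09c) itself were not absent from the libraries labelled *atf21Δ*. Its scaled RPKM in the *atf21Δ*-labelled libraries was 0.261, 0.211 and 0.463 at 0 min and 18.2, 18.5 and 26.6 at 30 min. In WT it was 0.0888, 0.0472 and 0.115 at 0 min and 29.96, 38.03 and 35.62 at 30 min. The gene was thus read in all libraries of both sets and rose in both, to lower values at 30 min in the *atf21Δ*-labelled set. A single value per feature does not show which part of the gene was read. Whether part of the gene remained or the label is wrong was not tested. Comparisons below are therefore between libraries labelled WT and *atf21Δ*, and are not read as effects of a deletion. RPKM is the number of uniquely mapped reads per kilobase of a feature, scaled to the unique reads of its library. Libraries held from 7457173 to 20126545 such reads, and 2.06% to 4.95% of them fell on the 784 members. Where a level fell in total RNA, fewer transcripts and a larger share of other RNA cannot be told apart.

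The members lay on chromosome I (339), II (296) and III (149), with 514 on the plus and 270 on the minus strand, and had a median length of 748 bases against 1303 for antisense ncRNAs and 1888 for protein-coding genes. Most (594) had no opposite-strand coding overlap at all, and 86 lay between 25% and the limit. SPNCRNA.969 (49.6%) and SPNCRNA.554 (49.4%) were just inside the limit, and SPNCRNA.605 (50.0%) was just outside it. Many members were not intergenic in the strict sense, since 187 shared bases with a coding gene on their own strand and 42 of those lay wholly inside one. GC content was low, with a median of 33.1% over the 664 members with a matching span against 36.2% over 735 antisense ncRNAs.

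Levels of the class were low. The mean scaled RPKM over 36 libraries had a median of 0.375 among low-overlap ncRNAs, 0.698 among antisense ncRNAs and 12.6 among protein-coding genes. A level of at least 1 was reached by 265 members (33.8%), at least 10 by 15 and at least 100 by 8. In each of the 36 libraries the class median lay below that of antisense ncRNAs, at 0 to 0.362 against 0.189 to 0.719. Before sorbitol the class medians were 0.316, 0.261 and 0.294 in WT and 0.294 to 0.329 in the *atf21Δ*-labelled libraries, so that both sets overlapped. The lowest values came at 15 min in WT, where 2 of the 3 libraries had a median of 0 and the third one of 0.351. From 39.8% to 66.1% of the members had a read in a given library. In the 2 WT libraries with a median of 0, replicates 1 and 3 at 15 min, these shares were 49.6% and 39.8%, against 59.4% in replicate 2. Replicate 1 was nevertheless the deepest of all libraries.

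**Figure D1:**
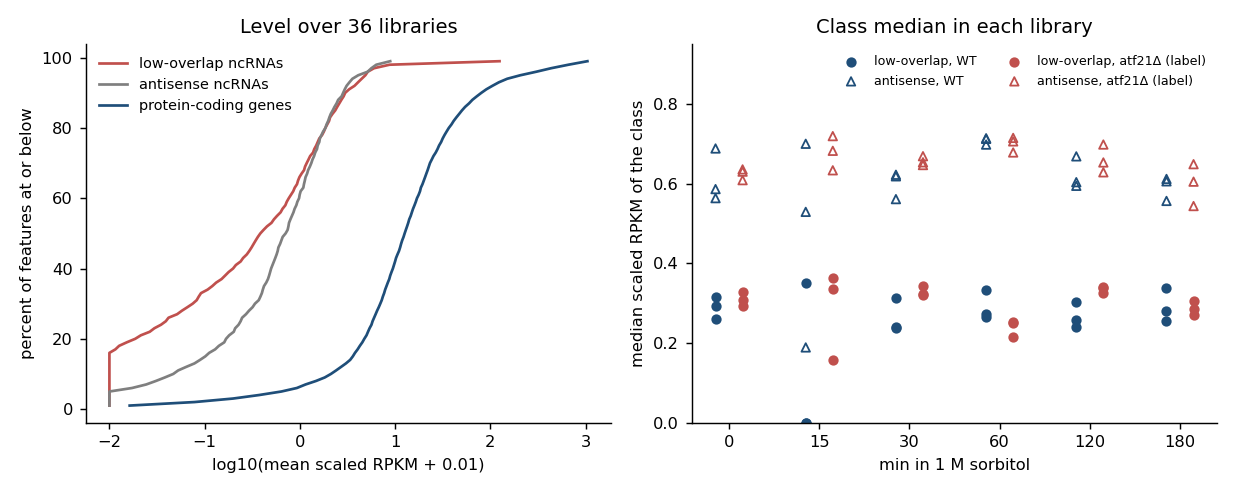
Left, percent of features (y) at or below a mean scaled RPKM (x, log10 after adding 0.01) for low-overlap ncRNAs (red), antisense ncRNAs (grey) and protein-coding genes (blue). Right, class median in each library against min in 1 M sorbitol (times evenly spaced); filled circles for low-overlap and open triangles for antisense ncRNAs, with the low-overlap median at 0 in 2 WT libraries at 15 min.

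Part of these low values belonged to members that share bases with other features of their strand. Each of the 173 features of the table whose bases all lie within other features of its strand had 0 reads in all 36 libraries, and 92 of them were members. One was *ter1*, the RNA subunit of telomerase, which lies inside other features and was listed at 0 throughout. *mrp1*, the RNA of RNase MRP, had 25 bases of its own and a mean level of 0.0652, although it is a housekeeping RNA. The 450 members that share no base had a median level of 0.687, and 19 of them had no read. All antisense ncRNAs had a median of 0.698, but they were not limited to those that share no base, so the sets are unlike. A value of 0 in members that share bases cannot be read as absence of the RNA.

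A few stable RNAs held nearly all reads of the class. *srp7* (SPNCRNA.98, I:4268566-4269064), the RNA of the signal recognition particle, took 72.4% of the reads on members and *rrk1* (SPNCRNA.128), the RNA of RNase P, 10.02%. SPNCRNA.1511, SPNCRNA.242, SPNCRNA.893, SPNCRNA.1444, SPNCRNA.1038 and SPNCRNA.530 followed, and the first 8 RNAs together took 97.2%. RefSeq lists SPNCRNA.1038 as the snoRNA *snR90* and SPNCRNA.530 as *sno530*. The next in order, SPNCRNA.1115, took 0.101%.

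At 15 min the mean of each of these 8 abundant RNAs was above its 0 min value in both strains. *srp7* had a scaled RPKM of 35827, 35234 and 26223 at 0 min and 71053, 68154 and 53439 at 15 min in WT. The groups did not overlap, but its log2 change of 0.99 (SE 0.40) did not pass the test (adjusted p = 0.111). *rrk1* went from 3402, 2551 and 2395 to 9706, 6000 and 4592 and passed it (log2 change 1.23, SE 0.35, adjusted p = 0.0238). In the *atf21Δ*-labelled libraries the same RNA had 4749, 2547 and 1908 at 0 min and 7307, 3340 and 3651 at 15 min, and the groups overlapped. The test called 6 of the 8 in WT and 0 in the other set, with median log2 changes of 1.01 and 0.79, and the strain-by-time interaction called 0 of them. With the replicate number as a block, 7 of the 8 were called in each set. These sizes rest on the scaling between libraries. On RPKM as deposited, 7 of 8 were above 0 in each strain, with medians of 0.48 and 0.28, and 0 were called. Without single WT libraries 1 to 6 were called, with 1 without replicate 2 at 0 min, 3 without replicate 3 at 0 min and 2 without replicate 1 at 15 min. The median of the *atf21Δ*-labelled libraries fell to 0.43 without replicate 1 at 15 min and to 0.51 without replicate 3 at 0 min, and 1 was called without replicate 1 at 0 min. Replicate 1 was the highest library of *srp7* in 6 of 6 groups of each strain. In the *atf21Δ*-labelled libraries the other abundant RNAs also had 6 of 6, apart from SPNCRNA.530 with 5. In WT they ran from 2 of 6 (SPNCRNA.1038) to 6 of 6 (SPNCRNA.1444).

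**Figure D2:**
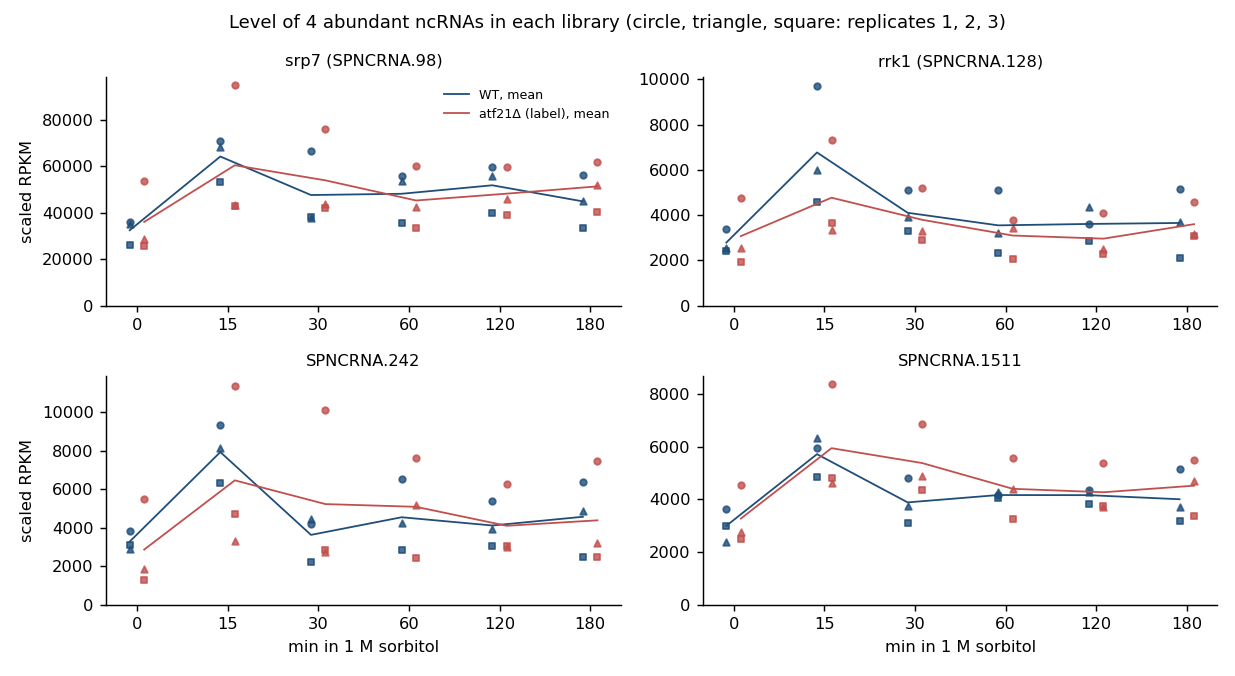
Scaled RPKM (y, from 0) of *srp7*, *rrk1*, SPNCRNA.242 and SPNCRNA.1511 against min in 1 M sorbitol (times evenly spaced), WT in blue and *atf21Δ*-labelled libraries in red, with a line through the means and circles, triangles and squares for replicates 1, 2 and 3. Levels at 15 min lay above 0 min on average in both strains, and circles were mostly the highest, as for *srp7* in all groups.

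Changes over time were tested for the 345 members that reached an RPKM of 1 in more than 6 libraries. They had a median of 22.9 reads per library, and 271 of them had under 50. An F-test over the 5 times (limma, Benjamini-Hochberg adjusted p under 0.05 over 5882 features) called 90 members in WT (26.1%), while 51.6% of all features were called. In the *atf21Δ*-labelled libraries it called 127 (36.8%), against 61.7% of all features. Antisense ncRNAs were called at 27.4% and 40.3%, and protein-coding genes at 56.1% and 67.7%. Low-overlap ncRNAs were thus called at about the rate of antisense ncRNAs, and both had lower levels than coding genes. The F-test called 62 members in both strains and 155 in at least 1. Of these, 28 were called in WT alone and 65 in the other set alone. The share of all features called in both strains was not counted.

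At 15 min 24 members were higher and 14 lower than at 0 min in WT, where 12.5% and 10.9% of all features were called. At 30 min 19 were higher and 19 lower, against 15.6% and 13% of all features. In the *atf21Δ*-labelled libraries 28 were higher and 24 lower at 15 min (15.6% and 12.3% of all features), and 38 were higher and 50 lower at 30 min (20% and 18.3%). The balance at both times depended on the scaling. Without it the median log2 change of all features was -0.46 and -0.38 at 15 and 30 min in WT and -0.43 and -0.30 in the other set, and with it they were from -0.01 to 0.04. On RPKM as deposited WT had 11 higher and 48 lower at 15 min, then 16 and 47 at 30 min, while the other set had 15 and 68, then 29 and 86. After quantile normalization 30 were higher and 11 lower in WT at 15 min. Without replicate 2 of the WT libraries at 15 min 26 were higher and 39 lower, and without replicate 2 or 3 at 0 min 7 were lower. At 30 min in the *atf21Δ*-labelled libraries 36 were higher and 31 lower without replicate 1 at 0 min, 32 and 29 without replicate 2 at 0 min, and 34 and 34 without replicate 3 at 30 min.

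From 60 min on, more members were lower than higher, as was so for antisense ncRNAs, for which WT had 15 higher and 21 lower at 60 min, and the other set 15 and 39. At 60 min WT had 4 higher and 18 lower (7.31% and 7.77% of all features), against 6 and 41 in the *atf21Δ*-labelled libraries (9.55% and 9.88%). At 120 min WT had 3 and 10 (3.33% and 2.31%) and the other set 3 and 22 (5.1% and 4.42%). At 180 min WT had 5 and 7 (2.74% and 2.23%) and the other set 4 and 21 (5.24% and 3.42%). Lower members outnumbered higher ones at 60 and 120 min in both strains under all 11 settings tried, and at 180 min in the *atf21Δ*-labelled libraries. In WT at 180 min this did not hold with a replicate block, without replicate 1 at 0 min (5 and 5) or without replicate 3 at 180 min (5 and 4). On RPKM as deposited WT had 5 and 11 at 180 min and the other set 0 and 36. Among all 345 tested members the median log2 change at 60 min was -0.17 in WT and -0.21 in the other set, with 66.7% and 64.6% below 0, whereas 49.5% and 46.4% of all features were below 0.

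**Figure D3:**
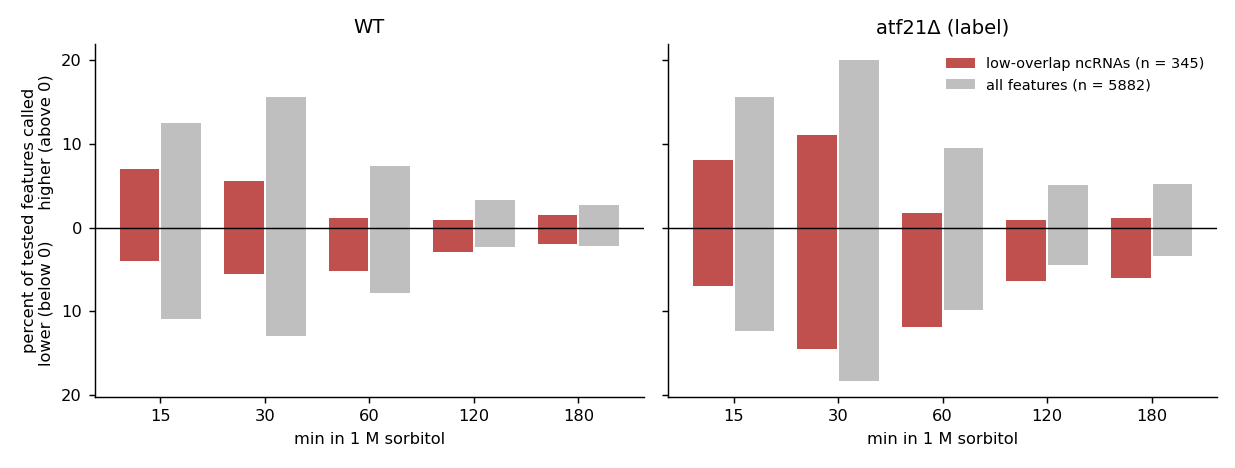
Percent of tested features called higher (above 0) and lower (below 0) than at 0 min (limma, adjusted p under 0.05) against min in 1 M sorbitol, for 345 low-overlap ncRNAs (red) and all 5882 features (grey), in WT and *atf21Δ*-labelled libraries. The red bars are the smaller ones for higher calls at every time, and from 60 min on more of the red lies below 0, with 41 members lower and 6 higher at 60 min in the right panel.

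The largest changes of the class were spread over the times. Of members called by the F-test whose largest change was a rise past 2-fold, 14 of 30 in WT peaked at 15 min and 13 at 30 min. Protein-coding genes had 83.9% of their 411 such rises at 30 min and 3.89% at 15 min. In the *atf21Δ*-labelled libraries 12 of 37 members peaked at 15 min and 23 at 30 min, against 2.53% and 85.3% of coding genes. For antisense ncRNAs WT had 9.68% of 31 such rises at 15 min and 58.1% at 30 min, while the other set had 31.2% and 56.2% of 32. Largest falls in WT were at 15, 30 and 60 min in 11, 10 and 11 of 37 members, and at 60 min in 20 of 50 in the other set.

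The largest rise at 30 min was that of SPNCRNA.828 (I:2450314-2451737, plus strand), which has 39.5% of its span opposite SPAC32A11.02c. Its scaled RPKM in WT was 0.692, 0.882 and 0.447 at 0 min, 11.1, 10.4 and 12.05 at 15 min and 10.4, 10.4 and 8.04 at 30 min. All stressed libraries at these times lay above all unstressed ones, and the log2 change was 3.33 (SE 0.28, adjusted p = 2.5e-07) at 15 min and 3.12 at 30 min. In the *atf21Δ*-labelled libraries it rose from 0.475, 0.781 and 0.692 to 13.8, 17.0 and 11.3 at 30 min, again without overlap (log2 change 3.65, SE 0.22, adjusted p = 8.2e-10). It was still higher at 180 min in WT (log2 change 1.01, adjusted p = 0.0204), while the value in the other set was 0.54 (adjusted p = 0.0915).

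SPNCRNA.1115 (III:170340-174289) has 988 of 3950 bases outside other features of its strand. It went from 2.94, 1.96 and 2.55 at 0 min to 20.8, 17.0 and 16.9 at 30 min in WT, a log2 change of 2.66 (SE 0.23, adjusted p = 3.5e-07). The other set gave 2.90, and the groups did not overlap in either. SPNCRNA.1571, 3307 bases long, was highest at 30 min alone, with 6.08, 6.90 and 5.39 against 1.01, 0.728 and 0.828 at 0 min in WT (log2 change 2.29, SE 0.21, adjusted p = 9e-07). By 60 min it was back at 0.851, 0.911 and 0.599, which overlapped the 0 min libraries.

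SPNCRNA.974 (I:4291999-4292912) rose earlier, to 13.2, 7.18 and 12.8 at 15 min from 2.64, 0.573 and 0.975 at 0 min in WT (log2 change 2.71, SE 0.33, adjusted p = 1.8e-05). The other set gave 2.75 at the same time. SPNCRNA.1499 (II:2265286-2265818) went from 1.66, 0.196 and 1.31 to 12.8, 8.44 and 3.75 at 30 min in WT, a spread of replicates that left an SE of 0.49 on a log2 change of 2.51 (adjusted p = 0.00187). SPNCRNA.866 (I:2971998-2975970) had 0.707, 1.53 and 1.15 at 0 min, 1.95, 2.53 and 4.76 at 30 min and 3.43, 1.95 and 2.81 at 60 min in WT. In total, 23 members met the criteria for a rise at 30 min (called by the F-test over all times in both strains, no overlap with 0 min, at least 20 reads), 15 at 15 min and 3 at 180 min. These criteria need no call at the named time. They were not counted over all features, so the numbers have no background to be set against. At 180 min SPNCRNA.866 was not called in WT or the other set (adjusted p = 0.185 and 0.0518, limma), and 1 member was called higher in both.

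*sme2* (SPNCRNA.103) encodes meiRNA, which gathers Mmi1 and the meiotic regulator Mei2 at its own locus in meiosis. The span in the table (II:339346-340012) covers only the 3′ part of the long isoform in RefSeq (339346 to 340907) and none of the short one (340399 to 340907). Its scaled RPKM in WT was 2.88, 2.04 and 2.10 at 0 min, 38.3, 25.9 and 18.4 at 15 min and 10.8, 8.82 and 4.91 at 30 min. The peak at 15 min did not overlap any other WT group (log2 change 3.25, SE 0.38, adjusted p = 1.3e-05). The *atf21Δ*-labelled libraries went from 4.49, 2.19 and 1.93 to 25.8, 19.7 and 19.7 at 15 min (log2 change 2.79, SE 0.31, adjusted p = 2.8e-06). At 60 min both sets were near 0 min again. The stretch printed above holds all 3 TTAAAC of the 1562 bases of the long isoform, or 1.92 per kilobase against 0.574 over the members, and 21 members held as many. Variants of the motif were not counted, so this is not a count of Mmi1 sites.

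The largest fall was that of SPNCRNA.1696 (II:4464625-4466286), named *nam3* in RefSeq, which has 850 bases of its own. In WT it had 3.68, 5.04 and 3.91 at 0 min and 0.222, 0.278 and 0.711 at 30 min (log2 change -2.41, SE 0.33, adjusted p = 6.5e-05). It stayed low, with 1.13, 0.493 and 0.747 at 180 min, below every 0 min library. The *atf21Δ*-labelled libraries gave a log2 change of -2.18 at 30 min and -1.67 at 180 min. SPNCRNA.863 (I:2939138-2940765) fell from 6.09, 5.27 and 4.57 to 0.869, 1.28 and 0.949 at 30 min in WT (log2 change -1.93, SE 0.27, adjusted p = 8.4e-05). In the other set it fell from 11.9, 14.1 and 11.7 to 1.70, 4.97 and 1.85 (log2 change -2.10, SE 0.29). SPNCRNA.782 fell more slowly and was lowest in WT at 120 min, with 2.26, 1.57 and 3.64 against 8.06, 7.56 and 7.74 at 0 min.

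Other falls were brief in WT. In the *atf21Δ*-labelled libraries SPNCRNA.756 was still called lower at 60 min (log2 change -1.10, adjusted p = 0.00833, limma). SPNCRNA.943 was called lower there at 180 min (log2 change -0.68, adjusted p = 0.0327, limma). SPNCRNA.756 had 9.86, 5.43 and 9.19 at 0 min, 2.96, 1.92 and 0.842 at 30 min and 7.68, 7.08 and 6.94 at 60 min in WT (log2 change at 30 min -1.91, SE 0.55, adjusted p = 0.0256). Without single libraries the adjusted p reached 0.108 (without replicate 3 at 30 min), and it also passed 0.05 without replicate 1 or 3 at 0 min or replicate 2 at 30 min. SPNCRNA.1278 went from 2.15, 2.02 and 2.95 to 0.170, 0.212 and 0.501 at 30 min and was back at 1.91, 1.78 and 2.14 at 60 min. SPNCRNA.943 fell by 1.49 at 30 min in WT on the log2 scale (adjusted p = 0.0217), a call that was lost without replicate 1 or 3 at 0 min or replicate 1 at 30 min (adjusted p 0.059 to 0.0852). At 15 min SPNCRNA.1316, SPNCRNA.1599 and SPNCRNA.1696 had the largest falls by the same criteria, with log2 changes of -1.35, -1.34 and -1.04 in WT and -0.65, -1.04 and -0.39 in the other set, where SPNCRNA.1696 did not pass the test at this time (adjusted p = 0.461, limma). In total, 18 members met the same criteria for a fall at 30 min, 6 at 15 min and 7 at 180 min, again without a count over all features.

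**Figure D4:**
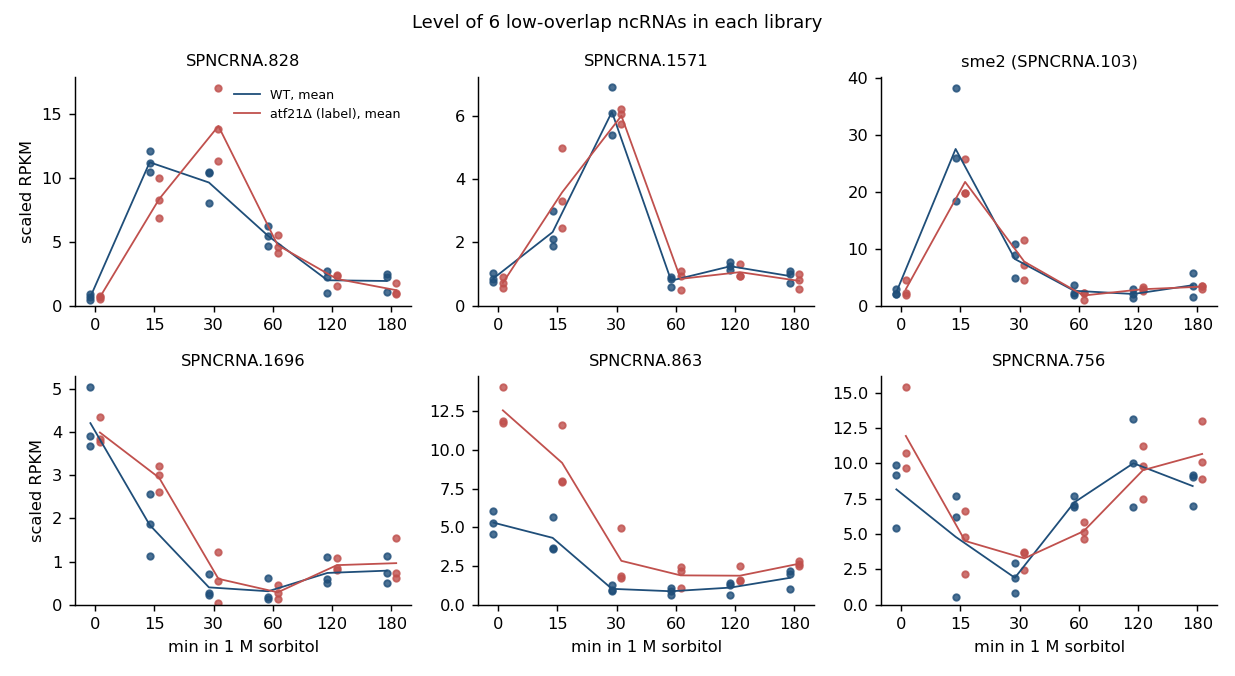
Scaled RPKM (y, from 0) of 6 members against min in 1 M sorbitol (times evenly spaced), WT in blue and *atf21Δ*-labelled libraries in red, with 1 point per library and a line through the means. SPNCRNA.1571 and *sme2* rose and were near 0 min again at 60 min, and SPNCRNA.828 rose and was still higher at 180 min in WT. SPNCRNA.1696 and SPNCRNA.863 stayed low to 180 min. SPNCRNA.756 was near 0 min again at 60 min in WT, but still lower in the *atf21Δ*-labelled libraries.

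Changes of the members were positively correlated between the strains. Across the 345 tested members the log2 changes of WT and of the *atf21Δ*-labelled libraries had an r of 0.62, 0.76, 0.71, 0.56 and 0.49 at the 5 times, in order, with the same sign in 65.8% to 74.8% of members. Both strains called 18 members higher and 15 lower at 30 min, and at each of the 5 times 0 were called in opposite directions. Alone, WT called 15.6% of all features higher and 13% lower at 30 min, and the other set 20% and 18.3%. The share of all features called in both, or in opposite directions, was not counted, so these counts are not read as particular to the members. The strain-by-time interaction (limma) called 0 members, where 0.034% of all features were called, with 24 members (6.96%) and 4.56% of all features at an unadjusted p under 0.05 and 0 members by voom. Leaving out replicate 2 of WT at 15 min raised the 0 of limma to 4. With 3 replicates and 271 of 345 tested members under 50 reads per library, few calls do not show that the strains were alike. The smallest interaction p was that of SPNCRNA.1141, which had 0.471, 0.736 and 0.580 in WT at 30 min, whereas the other set had 2.23, 2.68 and 2.93 (limma F-test, adjusted p = 0.739). At 0 min the test between strains called 0 members, again with 0.034% of all features called, 6 members and 101 of the 5882 features at an unadjusted p under 0.05, and 1 member by voom. That 1 was SPNCRNA.863, whose levels before sorbitol did not overlap, at 11.9, 14.1 and 11.7 in the *atf21Δ*-labelled libraries against 6.09, 5.27 and 4.57 in WT (log2 difference 1.17, unadjusted p = 3.4e-04, adjusted p = 0.671). Its voom estimate was 1.23 with an adjusted p of 0.004.

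Many members lie beside a coding gene that starts in the other direction, and 490 had such a divergent gene within 1000 bases of their start. For the 234 pairs in which both were tested, the log2 changes of ncRNA and gene had an r of 0.52 in WT at 30 min and one of 0.61 in the *atf21Δ*-labelled libraries. In 151 pairs that share no base r was 0.50 and 0.56. The 11 members called higher at 30 min in WT had 11 divergent genes called higher, where 30.8% of the divergent genes were called higher. In the other set 22 of 26 did, against 38.5%. Falls were less matched, with 7 of 15 genes called lower in WT (11.97% of the divergent genes) and 9 of 36 in the other set (12.8%), where 11 genes were called higher. Spearman's rho of the 234 pairs was lower, at 0.35 and 0.39. Genes upstream on the same strand gave an r of 0.09 and 0.03 at 30 min (330 pairs), convergent genes -0.09 in both strains (115 pairs), and downstream genes 0.14 and 0.22 (327 pairs). Upstream and downstream genes were taken at any distance, divergent and convergent ones within 1000 bases. With a gap under 300 bases downstream genes gave 0.36 and 0.34 (62 pairs) and upstream genes 0.11 and 0.25 (24 pairs). Coding genes that overlap on the same strand gave 0.31 and 0.38 (73 pairs). These values describe pairs that share library and scaling, and the 234 pairs hold 232 genes.

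**Figure D5:**
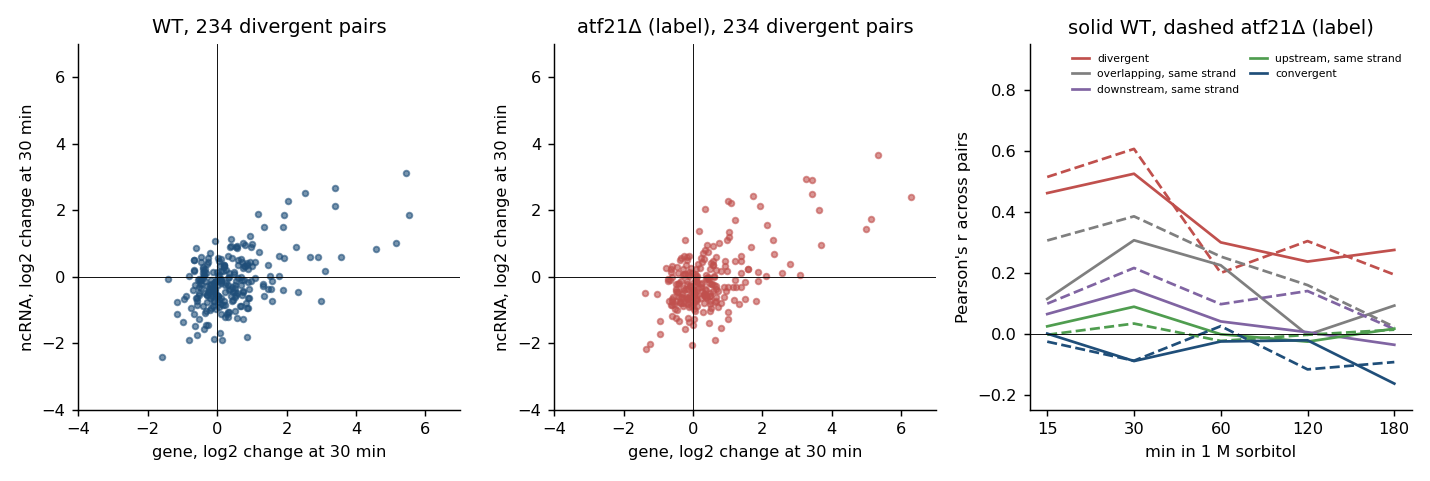
Left and middle, log2 change at 30 min of 234 low-overlap ncRNAs (y) against that of their divergent coding gene (x) in WT and *atf21Δ*-labelled libraries, 1 point per pair. Right, Pearson's r across pairs (y) against min in 1 M sorbitol for each arrangement, solid for WT and dashed for *atf21Δ*-labelled libraries, with divergent pairs the highest at 30 min (0.52 and 0.61). Upstream and downstream genes were taken at any distance.

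The pairs with the largest rises showed that partners did not keep the same time course. SPAC32A11.02c rose by a log2 change of 3.97 at 15 min and 5.44 at 30 min in WT, then stood at 1.38 at 60 min, when SPNCRNA.828 was still at 2.35. SPAC2C4.17c, which RefSeq lists as a mechanosensitive ion channel, starts 222 bases from SPNCRNA.974 and rose by 2.61 at 15 min and 3.38 at 30 min, while the ncRNA was at 2.71 and 2.13. SPCC320.03, a transcription factor in RefSeq and the partner of SPNCRNA.1115, was at 3.39 at 30 min and 0.65 at 60 min, and the ncRNA at 2.66 and 2.11. SPCC1235.01, which shares bases with SPNCRNA.1115 on its strand, followed it more closely, with 1.68, 2.91 and 2.18 at 15, 30 and 60 min against 1.76, 2.66 and 2.11. On the falling side SPBPB2B2.05 lay 230 bases from SPNCRNA.1696 and was at -1.59 at 30 min and -2.18 at 180 min. *rlp7*, a ribosome biogenesis gene 78 bases from SPNCRNA.756, was at -0.81.

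SPNCRNA.1058 and the divergent *pyp2*, a phosphatase of Sty1, were a further pair, chosen after their values were seen. SPNCRNA.1058 went from 0.730, 0.423 and 0.600 at 0 min to 1.54, 2.17 and 4.08 at 15 min in WT (log2 change 1.44, SE 0.34, adjusted p = 0.00802), whereas *pyp2* changed by 4.68. Likewise chosen, SPNCRNA.840 went from 1.77, 1.501 and 1.20 to 8.92, 6.37 and 5.01 at 15 min and *ppk15*, the gene of a protein kinase, by 1.40. SPNCRNA.988 had 0 reads in all 6 libraries at 0 min and 22, 7 and 30 reads at 15 min in WT, so that no fold change is given. SPNCRNA.935 and SPNCRNA.968, also chosen later, rose at 30 min alone, from 0.742, 1.71 and 1.83 to 3.85, 7.21 and 4.58 and from 2.20, 2.67 and 2.13 to 6.91, 9.01 and 8.33 in WT.

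The start regions were searched for 5 motifs on both strands, over 300 bases from 250 before to 50 after the start as RefSeq has it. TGACGT was found in 5 of 23 members called higher in both strains at 15 or 30 min (21.7%), in 2 of 22 called lower in both at 30 or 60 min (9.09%), in 9.66% of 176 members not called and in 5.49% of 12605 RefSeq start regions. The 5 were SPNCRNA.935, SPNCRNA.968, SPNCRNA.988, SPNCRNA.1058 and SPNCRNA.1499. In SPNCRNA.988 and SPNCRNA.1499 the match overlapped bases of a coding gene. Without such bases, a search added after the matches were seen, 3 of 23, 1 of 22 and 6.25% of 176 members held it. GTAAACA was in 21.7% of the members that rose, 13.6% of those that fell and 12.98% of all start regions. TATAAA was in 21.7%, 40.9% and 45.3% of the same sets. ACGCGT, the MCB motif of cell cycle genes, was in 0 of both member sets and 2.46% of all start regions, and CAGTCACA in 0, in 1 (SPNCRNA.756) and in 1.65%. These shares describe small sets, and no match says only that the letters are not in the window.

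Genes for RNA processing and turnover, which degrade many ncRNAs, were examined as a list of 36 symbols, of which 24 were in the table and tested. At 30 min WT had 0 of them higher and 7 lower (median log2 change -0.36), where 15.6% and 13% of all features were called. The *atf21Δ*-labelled libraries had 0 and 13 (median -0.38), against 20% and 18.3% of all features. At 15 min 5 were lower and 0 higher in each strain (10.9% and 12.3% of all features were lower), and at 120 and 180 min 0 were called. *rrp6*, the nuclear exosome exonuclease, changed by -0.86 at 30 min in WT (SE 0.12, adjusted p = 8e-05) and *rrp41*, an exosome core subunit, by -0.95 (SE 0.19, adjusted p = 0.00257). *red1*, of the complex that eliminates meiotic transcripts with Mmi1, changed by -1.35 at 15 min (SE 0.22, adjusted p = 3.5e-04), while *mmi1* was at -0.03 and did not pass the test. *dcr1* and *ago1* of the RNAi pathway were at 0.21 and 0.18 at 30 min, and neither passed it. Whether these levels bear on the ncRNAs was not tested.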

How the data were processed

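The authors aligned stranded single-end SOLiD reads with SHRiMP2 to the PomBase release 11 genome, dropped those mapping to more than 1 locus and deposited 1 RPKM value per feature and library, with no normalization between libraries and no pooling. For 100% of 253404 values, value times length came out as whole reads, at 1 step for each library and within 0.001 of a read, so reads were recovered. Libraries were put on 1 scale with a trimmed mean of log ratios without weights (trimming 30% of the ratios and 5% of the levels), then 0.5 was added and log2 taken, so that changes of low features are understated. limma 3.58.1 (R 4.3.3) was run per strain, with time as factor and a variance trend, on the 5882 features that reached an RPKM of 1 in more than 6 of 36 libraries. Contrasts against 0 min were adjusted by Benjamini-Hochberg over features and times together, and adjusted p under 0.05 was a call. Interaction and 0 min strain tests used all 36 libraries. The procedure was tested on simulated data. Python 3.11.15 with pandas 2.3.3 did the rest.

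Named members were the first 8 with a symbol of their own, the 5 with the highest level, the 5 largest rises and falls at 30 min and 3 at 15 and at 180 min (called in both strains by the F-test, no overlap, at least 20 reads), the 3 smallest interaction p, those next to the overlap limit, the 3 called members of highest level, and coding neighbours. Others are marked as chosen after their values were seen. The members, lists and tests were chosen with earlier results of these data known. Alternatives tried were no scaling, quantile normalization, pseudocounts of 0.1 and 1, a filter at an RPKM of 5 or none, a replicate block, no trend, voom on recovered reads, 1 fit of all libraries, leaving out each library and narrower definitions of a member. Members without any same-strand overlap were added after the data were seen. Since no molecular identifiers were used, reads may repeat a molecule.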

Additional observations from a re-analysis of the deposited data

How the results depend on the processing

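Among alternative values of the main results, 517 kept the result and 69 moved it. The balance of higher and lower calls turned at 15 min without scaling, and at 30 min it was level in the *atf21Δ*-labelled libraries in 1 fit of all libraries (34 and 34). For the 10 members with the largest changes at 30 min 543 values kept the call and 9 lost it, all for SPNCRNA.756 or SPNCRNA.943 in WT. The log2 change of SPNCRNA.943 at 30 min in WT lost it at a pseudocount of 0.1 (adjusted p = 0.0614, limma) and with voom (adjusted p = 0.0667). With an RPKM of at least 5, 63 members were tested, the F-test called 22 in WT and 26 in *atf21Δ*-labelled libraries, 12 and 11 were higher and 0 and 3 lower at 15 min, 6 and 6 higher and 8 and 14 lower at 30 min, and 7 and 9, 5 and 7, and 5 and 7 were called at 60, 120 and 180 min. Without scaling 11 and 15 were higher and 48 and 68 lower at 15 min, and 47 and 86 lower at 30 min. In 1 fit of all libraries 24 and 14 were lower at 15 min, 35 were lower at 30 min in WT, 29 were called at 60 min in the *atf21Δ*-labelled libraries, and 19 and 16 at 180 min. Without a filter 31 were higher at 30 min in WT. With voom 14 were lower at 15 min in the *atf21Δ*-labelled libraries, and 1 member differed between strains at 0 min. Without any same-strand overlap the F-test called 53 in WT. The causes of these differences were not tested, apart from the smaller number of members tested.

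The median log2 change of all 784 members at 30 min was 0 in both strains, since most untested members stay at or near 0, and over tested members -0.19 and -0.24. The median level at 0 min was 0.290 in WT and 0.310 in the *atf21Δ*-labelled libraries. It was 0.319 and 0.378 without scaling, 1.69 and 1.86 over tested members, 0.0849 and 0.137 without any opposite-strand overlap, 0.323 and 0.361 without same-strand coding overlap and 0.583 and 0.565 without any same-strand overlap.

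Leaving out single libraries gave F-test counts of 75 to 115 in WT and 113 to 135 in the *atf21Δ*-labelled libraries. In WT 16 to 30 were higher and 7 to 39 lower at 15 min, 15 to 25 higher and 9 to 34 lower at 30 min, and 14 to 31, 6 to 16 and 4 to 15 were called at 60, 120 and 180 min. The extremes of lower calls came without replicate 2 or 3 of WT at 0 min (7) and replicate 2 at 15 min (39), and at 30 min without replicate 3 at 0 min (9) and replicate 3 at 15 min (34). In the *atf21Δ*-labelled libraries 19 to 29 were higher and 9 to 23 lower at 15 min, 31 to 37 higher and 29 to 55 lower at 30 min, and 30 to 52, 16 to 28 and 17 to 27 were called at the later times, with the lowest lower counts at 15 and 30 min (9 and 29) without replicate 2 at 0 min. The interaction called 0 to 4 and the strain test at 0 min 0 to 0. The median level at 0 min was 0.278 to 0.305 in WT and 0.301 to 0.318 in the other set.

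Replicate numbers were not taken to pair the samples, as not every same-numbered pair of libraries correlated over 0.1 in its deviations. This rule is strict and does not show that a number shares nothing. The main fit leaves any difference shared by a number in its error. In WT the correlations ran from -0.23 to 0.50, with 27 of 45 over 0.1, and 11 of 18 libraries correlated best with their own number. In the other set they ran from -0.07 to 0.38 with 33 of 45 over 0.1, and 17 of 18 did, a hint from the data at a shared number. The median correlation was 0.15 in WT and 0.21 in the other set, against -0.07 and -0.08 between libraries of different numbers. With a replicate block the F-test called 102 members in WT and 161 in the *atf21Δ*-labelled libraries. Depth is a further limit, since 271 of 345 tested members had under 50 reads per library.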
